A study of Mus musculus with 32 samples.

Results

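The genes described here encode the nuclear-encoded subunits of the mitochondrial respiratory chain and of ATP synthase, measured on microarrays of blood and cerebellum from 2 mouse models of autism-related disorders. Members were chosen by symbol alone, as genes whose single symbol in the platform annotation starts with Nduf followed by a subunit letter and number, Sdh, Uqcr, Cox4 to Cox8 with an isoform letter, or Atp5. This gave 79 of 19938 genes, measured by 103 probe sets, of which 35 belong to complex I by name, 4 to complex II, 8 to complex III, 15 to complex IV and 17 to complex V. For the 16 genes with more than 1 probe set, the probe set with the highest mean over the 32 arrays stood for the gene. The symbol rule leaves out some subunits, among them Cox4i1, Ndufab1 and those encoded in mitochondrial DNA, and a few of these are given separately below.

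Fmr1-KO mice (n = 5) lack Fmr1, the gene silenced in fragile X syndrome, and were compared with WT littermates (n = 5) on a congenic C57BL/6 background. Tsc2+/- mice (n = 3) carry 1 inactive copy of Tsc2, a gene mutated in tuberous sclerosis, and were compared with WT littermates (n = 3) on a mixed 129/SvJae and C57BL/6J background. Loss of both Tsc2 copies is lethal in the embryo, so every Tsc2+/- mouse kept a functional copy. Whole blood and cerebellum came from the same 16 mice, which were 8 to 10 weeks old, and each tissue of each mouse was hybridised to 1 array. The sample labels call the mice female and the study's methods call them male. The p-values below measure the spread between these mice.

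Complexes I to IV pass electrons from NADH and succinate to oxygen and, except for complex II, pump protons across the inner mitochondrial membrane, and complex V (ATP synthase) uses the proton gradient to make ATP. Neurons depend heavily on this route because ion pumping at synapses and along axons consumes ATP, whereas mature red cells have no mitochondria and neutrophils live mainly on glycolysis. Several subunits of complex IV and ATP synthase exist as isoforms from separate genes, some of them best known from heart and skeletal muscle or testis. Blood and cerebellum are mixtures of cells, so fewer cells of a type and less RNA per cell cannot be told apart in any of the values below.

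The labels were checked first. The Fmr1 probe set differed by -1.53 on the log2 scale between Fmr1-KO and WT mice (limma, adjusted p = 0.000353), and the Tsc2 difference in Tsc2+/- mice was -0.34 over both tissues (limma, unadjusted p = 0.0319, adjusted p = 0.999). Summed Purkinje cell markers were 16550 to 22290 in cerebellum and at most 469.9 in blood. The cerebellum array of Fmr1-KO mouse 1 stood apart, with a correlation of 0.882 to the other arrays of its kind against 0.947 to 0.958 for the rest, and the WT cerebellum of mouse 1 in the same experiment shared part of its profile among the subunit genes. In the Tsc2 experiment, the blood arrays of Tsc2+/- mouse 2 and WT mouse 3 had summed platelet markers of 2306 and 1633, against 21110 to 32840 in the other 4, and summed neutrophil markers of 2167 and 1944, against 7617 to 20290.

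Promoter sequences of the genes on which the results turn are shown here because several members moved together between tissues and a few close relatives moved apart. RefSeq promoters (GRCm38.p6, 250 bases before to 50 bases after the start, on the gene's own strand) were matched for 66 of the 79 genes. Capitals mark 3 motifs searched on both strands, namely CGCATGCGC, the core of the palindromic site of NRF1, CCGGAAG, which is recognised by ETS factors such as GABP, and AAGATGGCG, which is recognised by YY1. The YY1 motif is in 10.6% of the matched members and 1.64% of 27025 genes, the NRF1 motif in 12.1% and 1.95%, and the ETS motif in 25.8% and 9.93%. Ndufa9 (chr6:126849095-126849394) and Ndufc1 (chr3:51408906-51409205) are complex I genes with a YY1 motif shortly after the start, Cox6b1 (chr7:30626065-30626364) and its relative Cox6b2 (chr7:4753045-4753344) differed in opposite directions between tissues, and Atp5l (chr9:44920693-44920992) and Cox6a1 (chr5:115348909-115349208) differed between the 2 experiments. All 6 lie on the minus strand.
Ndufa9: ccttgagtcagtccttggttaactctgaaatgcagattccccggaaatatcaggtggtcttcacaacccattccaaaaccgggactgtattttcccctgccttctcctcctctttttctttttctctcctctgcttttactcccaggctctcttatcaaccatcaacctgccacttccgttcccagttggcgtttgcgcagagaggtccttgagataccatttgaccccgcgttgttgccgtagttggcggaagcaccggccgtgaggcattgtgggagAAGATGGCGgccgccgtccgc
Ndufc1: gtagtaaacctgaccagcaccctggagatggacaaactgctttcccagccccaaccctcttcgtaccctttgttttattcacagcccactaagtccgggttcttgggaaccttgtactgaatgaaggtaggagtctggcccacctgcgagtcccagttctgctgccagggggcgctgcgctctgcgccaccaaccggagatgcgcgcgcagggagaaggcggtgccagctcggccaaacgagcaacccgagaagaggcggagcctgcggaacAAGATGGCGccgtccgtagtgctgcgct
Cox6b1: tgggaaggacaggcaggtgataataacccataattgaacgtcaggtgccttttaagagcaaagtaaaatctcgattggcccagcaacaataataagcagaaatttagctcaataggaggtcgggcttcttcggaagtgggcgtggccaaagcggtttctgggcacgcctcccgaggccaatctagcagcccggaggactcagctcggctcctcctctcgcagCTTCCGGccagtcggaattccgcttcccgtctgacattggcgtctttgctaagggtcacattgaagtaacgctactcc
Cox6b2: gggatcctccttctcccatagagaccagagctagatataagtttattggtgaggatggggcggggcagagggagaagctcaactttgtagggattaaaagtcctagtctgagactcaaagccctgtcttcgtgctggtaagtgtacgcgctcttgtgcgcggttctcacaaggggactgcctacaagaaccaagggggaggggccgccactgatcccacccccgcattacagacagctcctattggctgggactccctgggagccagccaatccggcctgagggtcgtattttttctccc
Atp5l: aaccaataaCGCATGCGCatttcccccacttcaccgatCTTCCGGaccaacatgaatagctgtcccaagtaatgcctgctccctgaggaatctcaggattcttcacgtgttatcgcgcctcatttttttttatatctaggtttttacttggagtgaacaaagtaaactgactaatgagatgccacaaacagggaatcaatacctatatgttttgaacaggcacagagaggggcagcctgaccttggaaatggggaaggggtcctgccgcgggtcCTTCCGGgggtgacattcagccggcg
Cox6a1: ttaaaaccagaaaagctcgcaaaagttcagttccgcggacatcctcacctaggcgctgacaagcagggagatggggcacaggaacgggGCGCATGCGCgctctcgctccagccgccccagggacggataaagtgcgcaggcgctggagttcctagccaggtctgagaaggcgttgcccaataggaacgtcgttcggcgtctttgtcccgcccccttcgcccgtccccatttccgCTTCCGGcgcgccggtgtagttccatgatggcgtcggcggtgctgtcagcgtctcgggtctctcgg
Cox6b1 carried 1 ETS match and Cox6b2 none of the 3 motifs, Atp5l carried 1 NRF1 and 2 ETS matches, and Cox6a1 carried 1 ETS match and a full NRF1 palindrome, which counts once on each strand. Of the 7 YY1 matches among members, 6 lay after the start on the gene's own strand, at base 23 in Ndufc1, 24 in Atp5j2, 25 in Ndufs7, 30 in Ndufa9, 34 in Ndufs6 and 36 in Ndufs4. Over all genes 43.8% of 477 YY1 matches had that placement. A match describes letters in this window and says nothing about binding in these tissues.

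The first comparison asked how the subunit genes differ between cerebellum and blood. In the Fmr1 experiment 62 of 79 members were higher in cerebellum and 6 were lower (limma with genotype in the model, adjusted p under 0.05), beside 51.8% of all probe sets higher and 20% lower. The members' median log2 difference was 1.30, against 0.52 over all probe sets, and 86.1% of members were on the positive side, against 70.1% of probe sets. In the Tsc2 experiment 67 members were higher and 2 lower, beside 31% and 26.4% of all probe sets, with a median of 1.31 for members and 0.03 for all probe sets, and 93.7% of members lay on the positive side, against 51.7% of probe sets. All probe sets themselves shifted by about 0.5 in the Fmr1 experiment. Centring each array on its own median lowered the members' median there to 0.75 and gave 53 higher and 17 lower. The shares of all probe sets above are those without centring.

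**Figure D1:**
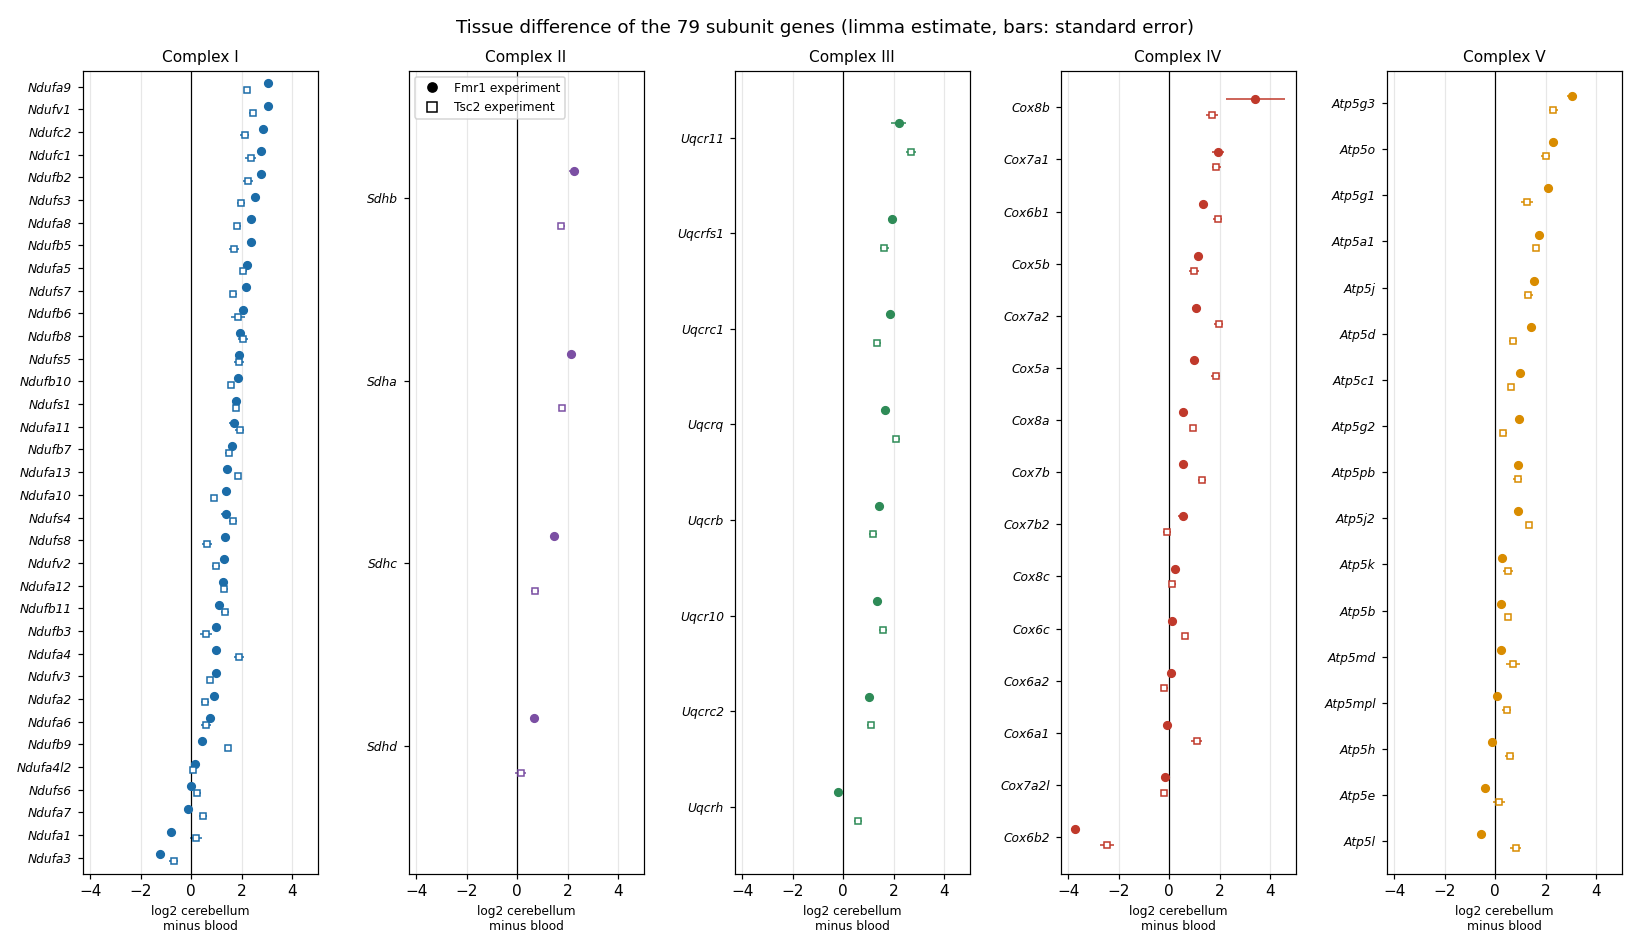
Tissue difference of each of the 79 subunit genes (log2 cerebellum minus blood, with standard error) by complex, with circles for the Fmr1 experiment and squares for the Tsc2 experiment. Complexes I to III lie mostly well above 0, and Cox6b2 lies farthest below 0, at -3.74 and -2.47.

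By complex, the median log2 difference between cerebellum and blood was 1.40 (Fmr1 experiment) and 1.66 (Tsc2 experiment) for complex I, 1.81 and 1.23 for complex II, 1.54 and 1.46 for complex III, 0.53 and 0.98 for complex IV, and 0.90 and 0.71 for complex V. In the Fmr1 experiment all 4 complex II and 7 of 8 complex III genes were higher in cerebellum (limma, adjusted p under 0.05). In complex IV 9 of 15 were, and in complex V 12 of 17, beside 51.8% of all probe sets. The share in complex IV was thus near that of all probe sets. In the Tsc2 experiment Sdhd of complex II did not pass, as given below. Within complex I the quinone-binding module (7 genes) had medians of 2.17 and 1.66, the membrane arm (18 genes) 1.77 and 1.76, and the NADH-oxidising module (8 genes) 1.27 and 1.16. Ndufa4 and Ndufa4l2 were placed in none of these modules and are counted in complex I by name only. Within ATP synthase the F1 part with its central stalk (5 genes, Atp5a1, Atp5b, Atp5c1, Atp5d and Atp5e) had medians of 0.99 and 0.63. The remaining subunits (12 genes) had medians of 0.89 and 0.86.

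Among complex I genes, Ndufv1 encodes the flavin-carrying subunit that oxidises NADH. Its intensity was 1776, 2650, 2441, 3037 and 2861 in Fmr1-KO cerebella and 2101, 2253, 2260, 2453 and 2675 in WT cerebella, against 283.1, 248.6, 354.9, 385.2 and 182.2 in Fmr1-KO blood and 385.2, 324.7, 363.9, 230.4 and 252.3 in WT blood. In the Tsc2 experiment it was 2522, 2718 and 2987 in Tsc2+/- cerebella and 2214, 2897 and 3010 in WT cerebella, against 398.5, 552.3 and 527.0 in Tsc2+/- blood and 430.0, 504.0 and 637.6 in WT blood. The tissues did not overlap, and the lowest cerebellum value was that of Fmr1-KO mouse 1. The log2 difference of Ndufv1 was 3.05 ± 0.14 (SE) in the Fmr1 experiment (limma, adjusted p = 2.53e-13) and 2.43 ± 0.13 in the Tsc2 experiment (adjusted p = 2.58e-08).

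Ndufa9 encodes an accessory subunit at the quinone-binding end of the peripheral arm. In cerebellum it read 1283, 1952, 1864, 2315 and 1995 in Fmr1-KO mice and 1444, 2003, 2249, 1977 and 2071 in WT mice, against 229.5, 192.1, 174.4, 239.4 and 204.0 in Fmr1-KO blood and 342.8, 261.3, 257.0, 208.1 and 209.5 in WT blood. The log2 difference was 3.05 ± 0.12 (limma, adjusted p = 2.4e-14), and in the Tsc2 experiment 2.20 ± 0.13 (adjusted p = 4.71e-08). Ndufc1 and Ndufc2, small subunits of the membrane arm, were also among the largest rises, with log2 differences of 2.78 and 2.83 among Fmr1 arrays and 2.36 and 2.12 among Tsc2 arrays. Ndufs1, the largest iron-sulphur subunit, was higher by 1.76 in both.

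Ndufa3, an accessory subunit of the membrane arm, ran the other way. It read 2382, 1275, 764.7, 1201 and 955.2 in Fmr1-KO cerebella and 2446, 783.2, 949.8, 798.7 and 1283 in WT cerebella, against 2616 to 2888 in Fmr1-KO blood and 2515 to 2993 in WT blood. The 2 cerebella of mice numbered 1 lay just under the blood values and the other 8 well below them. The log2 difference of Ndufa3 was -1.22 ± 0.20 (limma, adjusted p = 1.78e-05) in the Fmr1 experiment and -0.70 ± 0.19 (adjusted p = 0.00883) in the Tsc2 experiment. Ndufa1, an X-linked subunit needed for complex I assembly, was lower in cerebellum by 0.82 on the log2 scale in the Fmr1 experiment (adjusted p = 9.66e-05), with a difference of 0.20 in the Tsc2 experiment (adjusted p = 0.509).

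Complex II (succinate dehydrogenase) also serves the tricarboxylic acid cycle. Sdhb, its iron-sulphur subunit, read 564.4, 1721, 1405, 1521 and 1528 in Fmr1-KO cerebella and 789.2, 1273, 2133, 1372 and 1980 in WT cerebella, against 216.8 to 331.6 in Fmr1-KO blood and 239.8 to 387.1 in WT blood. Every cerebellum exceeded every blood sample, with both mice numbered 1 lowest among the cerebella. The log2 difference of Sdhb was 2.23 ± 0.20 (limma, adjusted p = 6.35e-09) and in the Tsc2 experiment 1.75 ± 0.15 (adjusted p = 1.12e-06). Sdha, the flavoprotein that oxidises succinate, was higher by 2.15 and 1.78 (adjusted p = 1.09e-12 and 2.48e-08). The membrane anchors differed less, with Sdhc at 1.46 and 0.71 and Sdhd at 0.68 (adjusted p = 0.000636) and 0.14 (adjusted p = 0.602).

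In complex III, Uqcr11 encodes the smallest subunit. Its intensity was 444.2, 1829, 1472, 2013 and 2158 in Fmr1-KO cerebella and 435.2, 1267, 2387, 1426 and 2168 in WT cerebella, against 265.7 to 419.9 in Fmr1-KO blood and 185.7 to 423.2 in WT blood. The cerebella of both mice numbered 1 were thus close to blood, whereas the other 8 were several times higher. In the Tsc2 experiment Uqcr11 read 1391, 2093 and 1876 in Tsc2+/- cerebella and 1054, 1498 and 2220 in WT cerebella, against 384.7, 215.0 and 291.9 in Tsc2+/- blood and 181.8, 261.4 and 236.7 in WT blood. The log2 difference of Uqcr11 was 2.19 ± 0.31 (limma, adjusted p = 3e-06) and 2.68 ± 0.21 (adjusted p = 5.14e-07). Uqcrfs1, the Rieske iron-sulphur protein, was higher in cerebellum by 1.91 and 1.64, and the core subunit Uqcrc1 by 1.87 and 1.35. Uqcrh, the hinge protein near cytochrome c1, was the exception, at -0.21 (adjusted p = 0.161) in the Fmr1 experiment and 0.57 (adjusted p = 0.00835) in the Tsc2 experiment.

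Complex IV (cytochrome c oxidase) had the widest range among its members. Cox6b2, a paralogue of Cox6b1 known from testis, was the member with the largest fall, at 134.3, 112.0, 70.79, 92.33 and 91.3 in Fmr1-KO cerebella and 165.6, 89.05, 84.29, 87.63 and 108.8 in WT cerebella, against 1587, 1194, 1225, 1239 and 1645 in Fmr1-KO blood and 977, 1663, 1594, 1271 and 1248 in WT blood. In the Tsc2 experiment it read 71.75, 103.6 and 123.3 in Tsc2+/- cerebella and 61.45, 99.51 and 112.3 in WT cerebella, against 599.3, 312.8 and 508.3 in Tsc2+/- blood and 946.3, 474.5 and 419.5 in WT blood. All blood values exceeded all cerebellum values in each experiment, and the blood of Tsc2+/- mouse 2, with few platelet markers, was the lowest blood sample. The log2 difference of Cox6b2 was -3.74 ± 0.14 (limma, adjusted p = 1.49e-14) in the Fmr1 experiment and -2.47 ± 0.27 (adjusted p = 8.81e-06) in the Tsc2 experiment. The widely expressed Cox6b1 was higher in cerebellum, by 1.33 ± 0.14 (adjusted p = 4.29e-08) and 1.93 ± 0.18 (adjusted p = 2.25e-06).

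**Figure D2:**
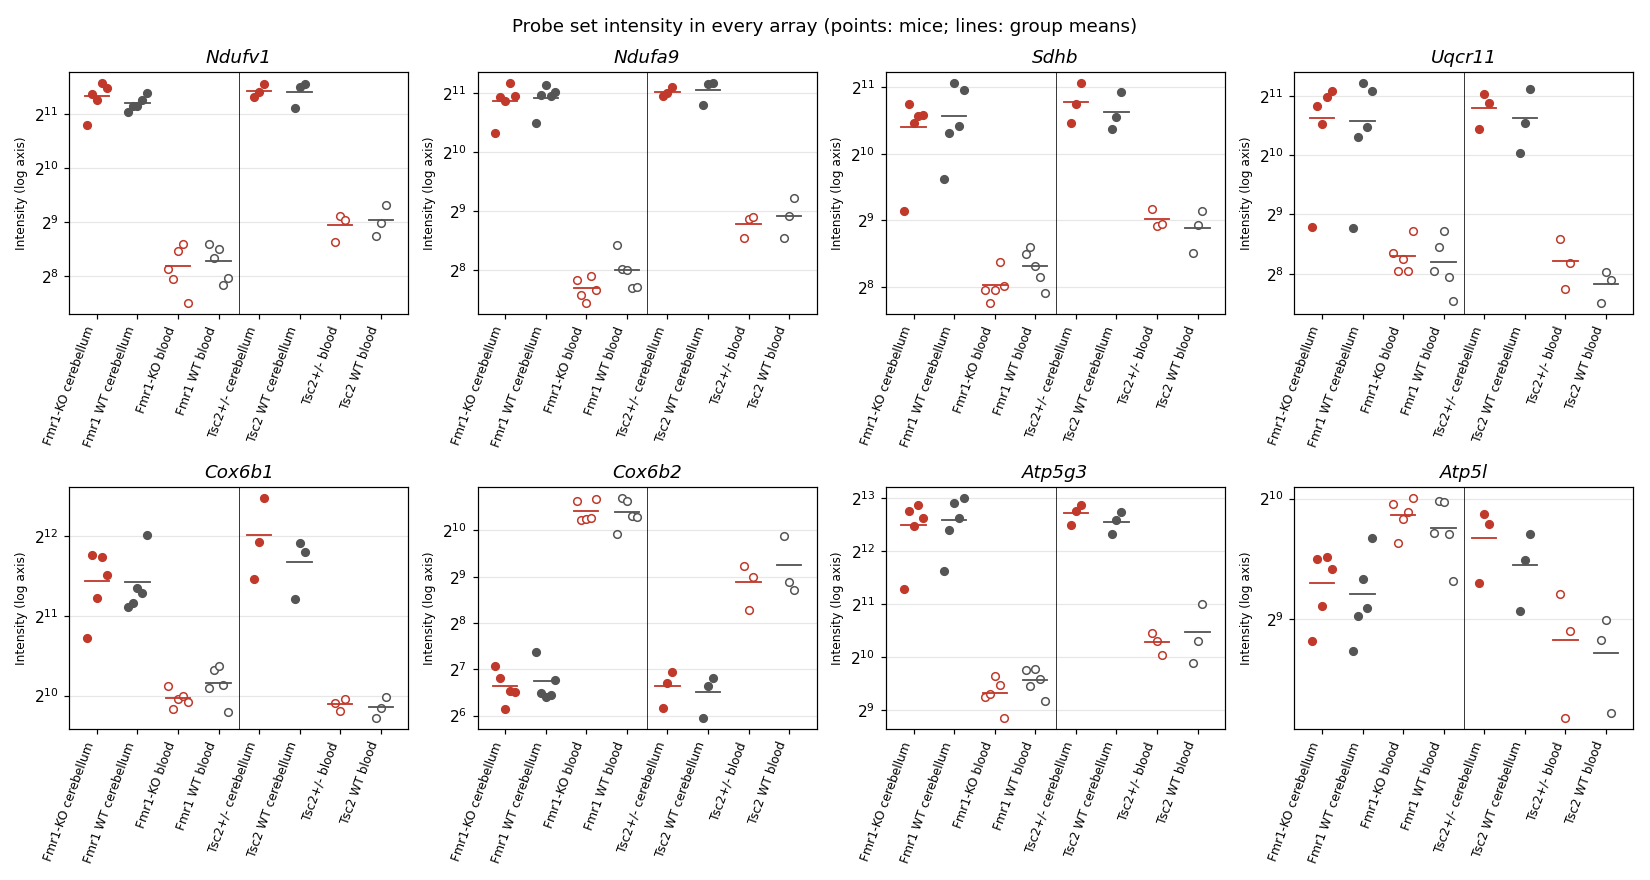
Intensity of 8 subunit genes on each array (log axis), with points for mice, in cerebellum and blood of each genotype. Ndufv1 and Atp5g3 lie higher in every cerebellum than in any blood sample, Cox6b2 lies lower in every cerebellum, and Uqcr11 in the cerebella of both mice numbered 1 of the Fmr1 experiment (444.2 and 435.2) lies close to blood.

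The other isoform families of complex IV gave mixed differences between cerebellum and blood. Cox7a1, the heart and muscle form, was higher by 1.92 (Fmr1 experiment) and 1.87 (Tsc2 experiment), and the widely expressed Cox7a2 by 1.07 and 1.96. Cox7a2l, a relative that takes part in supercomplex formation, was at -0.18 (limma, adjusted p = 0.042) and -0.21 (adjusted p = 0.189), but a further probe set of Cox7a2l gave 0.93 and 0.32, so its direction rests on the probe set. Cox8b, another muscle form, was dim in blood, where it ranged over 3.13 to 64.06 in Fmr1-KO mice and 0.01922 to 108.7 in WT mice, against 165.4 to 206.1 and 127.5 to 217.3 in their cerebella. Its log2 difference was 3.42 ± 1.17 (adjusted p = 0.0138) in the Fmr1 experiment, where the lowest blood value was that of WT mouse 2, and 1.69 ± 0.23 in the Tsc2 experiment. Cox8a, the general form, was higher by 0.56 and 0.93. Cox8c, known from testis, was at 0.24 and 0.13, Cox6a2, the muscle form, at 0.07 and -0.20, and Cox7b2, known from testis, at 0.53 (adjusted p = 0.0102) and -0.09. The core-proximal subunits Cox5a and Cox5b were higher by 0.98 and 1.12 among Fmr1 arrays and by 1.84 and 0.98 among Tsc2 arrays.

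In ATP synthase, 3 genes encode precursors of the same mature c subunit of the rotor ring. Atp5g3 read 2503, 6992, 5734, 7506 and 6366 in Fmr1-KO cerebella and 3168, 5432, 7687, 6308 and 8232 in WT cerebella, against 461.3 to 800.0 in Fmr1-KO blood and 580.0 to 873.9 in WT blood. No cerebellum overlapped with blood, and both mice numbered 1 were again the lowest cerebella. The log2 difference of Atp5g3 was 3.03 ± 0.20 (limma, adjusted p = 5.69e-11) and in the Tsc2 experiment 2.30 ± 0.18 (adjusted p = 6.04e-07). Atp5g1 was higher by 2.08 and 1.25, and Atp5g2 by 0.94 in the Fmr1 experiment, with 0.32 in the Tsc2 experiment (adjusted p = 0.062). The catalytic pair differed from each other, with Atp5a1 (alpha) higher in cerebellum by 1.73 and 1.62 and Atp5b (beta) by 0.23 (adjusted p = 6e-04) and 0.50. Atp5b read 9286 to 12510 over all arrays of the Fmr1 experiment there, and with arrays centred its difference was -0.32.

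Subunits that the symbol rule leaves out gave log2 differences between cerebellum and blood of 1.53 and 1.84 for Cox4i1, 0.64 and 0.68 for Cox4i2, 2.14 and 1.18 for Ndufab1, 2.27 and 1.81 for cytochrome c (Cycs), and, among mitochondrially encoded genes, 1.79 and 1.33 for ND3 and 0.54 and 0.39 for COX2 (Fmr1 experiment, then Tsc2 experiment). Genes that work with the complexes were described from fixed lists by their counts at an adjusted p under 0.05 (limma), beside 51.8% of all probe sets higher and 20% lower in the Fmr1 experiment, and 31% higher and 26.4% lower in the Tsc2 experiment. Assembly factors (43 genes) were higher in 36 and lower in 3 cases in the Fmr1 experiment and in 30 and 2 cases in the Tsc2 experiment. Enzymes of the tricarboxylic acid cycle (12 genes) were higher in 11 cases in each experiment and lower in none, with medians of 1.46 and 1.03. Glycolytic enzymes (14 genes) were higher in 13 and 12 cases and lower in 1 and 1, with medians of 1.84 and 1.65. Ldhb led at 6.83 and 4.71, whereas Hk1 was lower, at -1.42 and -1.81. Each list gene was read from its probe set with the highest mean, and any further probe sets of these genes were not compared. The 6 exchange carriers were all higher in both experiments, with Slc25a4, the ADP/ATP carrier of excitable cells, at 2.91 and 2.49. Cytosolic ribosomal proteins (55 genes) moved the other way, with 36 and 47 lower, 4 and 1 higher, and medians of -0.49 and -0.77.

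Regulators of mitochondrial gene expression (14 genes) were split, with 8 higher and 2 lower in the Fmr1 experiment and 5 higher and 6 lower in the Tsc2 experiment, which for the higher genes is near the share of all probe sets. Ppargc1a, a transcriptional coactivator that promotes mitochondrial biogenesis, was higher by 4.08 and 4.20, and its relative Ppargc1b was higher by 1.94 and 1.32. Tfam, which packages and transcribes mitochondrial DNA, was higher by 1.36 and 0.72. Of the DNA-binding factors whose motifs were searched, Nrf1 was at -0.51 and -0.50, Yy1 at -0.82 and -1.25, and Gabpa at 0.24 and -0.89. These are RNA values, and the part of these factors in the subunit differences was not tested.

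The tissue difference was then compared between the 2 experiments, with the interaction of tissue and experiment over all 32 arrays. Strain background and experiment cannot be told apart here. The signed log2 difference (cerebellum minus blood) was higher in the Tsc2 experiment for 16 members and lower for 14 (limma, adjusted p under 0.05), beside 6.05% and 27.5% of all probe sets, and the members' median was -0.105 against -0.44 over all probe sets. Complex IV ran one way, with 8 of 15 genes higher on this signed scale, none lower and a median of 0.37, Cox6b2 among them with a less negative difference, whereas complex I had 4 higher and 9 lower, complex II none and 1, complex III 1 and 1, and complex V 3 and 3. With each array centred on its own median, 22 members were higher and none lower, so the count of lower differences depended on the scaling. With the 2 blood arrays low in platelet markers left out, 15 were higher and 6 lower. The shares of all probe sets above hold for all 32 arrays without centring and were not taken for these fits.

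Atp5l, a small membrane subunit of ATP synthase also called subunit g, differed most among the members that passed. In the Tsc2 experiment it read 631.4, 936.5 and 887.6 in Tsc2+/- cerebella and 537.0, 721.6 and 836.6 in WT cerebella, against 593.7, 290.6 and 479.3 in Tsc2+/- blood and 455.6, 511.1 and 300.2 in WT blood. In the Fmr1 experiment the order was turned, with 453.5, 723.8, 552.7, 733.9 and 684.7 in Fmr1-KO cerebella and 426.2, 521.9, 646.8, 547.6 and 817.2 in WT cerebella, against 993.0, 792.9, 910.2, 947.9 and 1027 in Fmr1-KO blood and 838.8, 1009, 1004, 834.4 and 638.7 in WT blood. The cerebella of the 2 experiments overlapped, and every blood sample of the Tsc2 experiment lay below every blood sample of the Fmr1 experiment. The tissue difference of Atp5l was 0.81 ± 0.21 in the Tsc2 experiment and -0.58 ± 0.12 in the Fmr1 experiment, which differed by 1.39 ± 0.23 (limma, adjusted p = 9.5e-05).

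Cox6a1, the widely expressed form of a regulatory complex IV subunit, showed the same layout. Its blood intensities were 1702, 1587 and 2105 in Tsc2+/- mice and 2260, 2016 and 1468 in their WT littermates, against 2821 to 3918 in Fmr1-KO mice and 2738 to 3710 in their WT littermates. Its cerebellum intensities were 3483, 5766 and 5116 in Tsc2+/- mice and 2322, 3814 and 3801 in WT mice, against 1960 to 3987 in Fmr1-KO mice and 2269 to 4534 in WT mice. The blood values of the 2 experiments did not overlap and the cerebellum values did. The tissue difference of Cox6a1 was 1.08 in the Tsc2 experiment and -0.09 in the Fmr1 experiment, a difference of 1.17 ± 0.24 (limma, adjusted p = 0.000673). Ndufb9, in the distal membrane arm of complex I, differed by 1.03 (adjusted p = 0.000243) and Cox6b2 by 1.27 ± 0.28 (adjusted p = 0.00126). The other direction was led by Ndufa9 at -0.85 ± 0.18 (adjusted p = 0.00111), Atp5g1 at -0.83 ± 0.27 (adjusted p = 0.0176), Sdhc at -0.76 ± 0.17 (adjusted p = 0.00156) and Atp5d, the delta subunit of the central stalk, at -0.73 ± 0.16 (adjusted p = 0.00155).

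**Figure D3:**
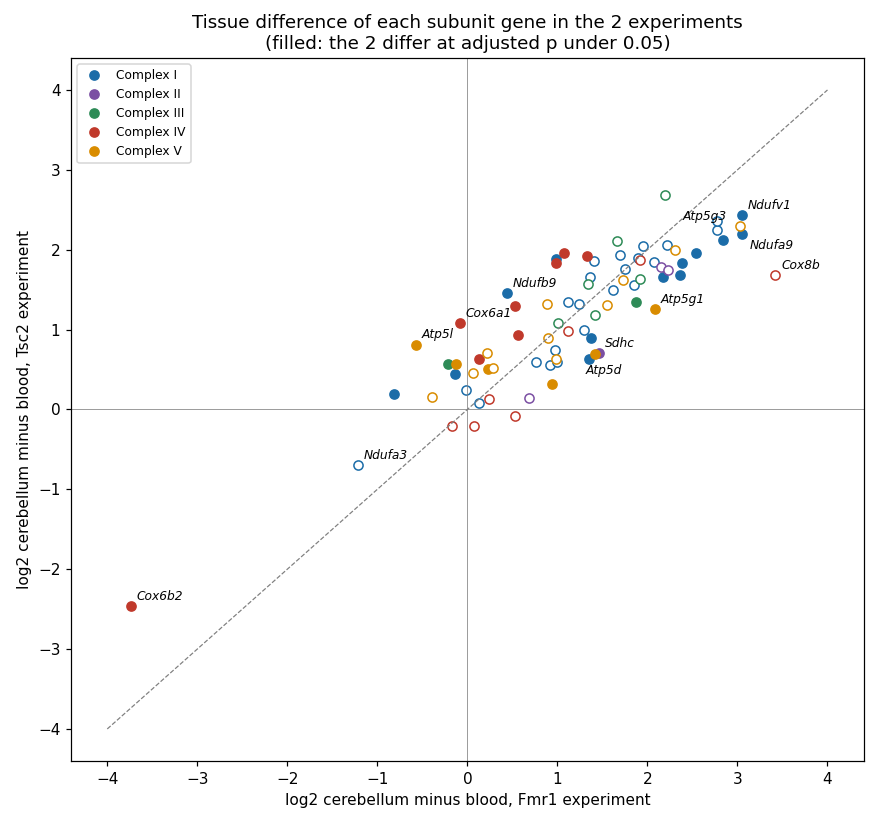
Log2 cerebellum minus blood of each member in the Tsc2 experiment and in the Fmr1 experiment, coloured by complex, with filled points for members whose tissue differences differed between experiments (limma, adjusted p under 0.05). Atp5l lies at 0.81 and -0.58, and Cox6a1 at 1.08 and -0.09.

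Tsc2 WT mice were then set against Fmr1 WT mice within each tissue. In blood, 6 members were higher and 8 lower in Tsc2 WT than in Fmr1 WT mice at an unadjusted p under 0.01, beside 9.43% and 2.55% of all probe sets, and none passed an adjusted p of 0.05 (limma, 0.132% of all probe sets). An unadjusted p under 0.05 was reached by 36 members, beside 29% of all probe sets. The lower members were Cox6b2 at -1.21, Atp5l at -1.05, Cox6a1 at -0.76, Ndufa4 at -0.66, Ndufb9 at -0.58, Cox7b at -0.56, Ndufa3 at -0.56 and Atp5h at -0.46. The higher members were Atp5g1 at 0.98, Ndufa9 at 0.93, Ndufb5 at 0.91, Atp5d at 0.62, Atp5g2 at 0.60 and Ndufa10 at 0.55. The limma adjusted p-values of these 14 genes were 0.0675 to 0.08. Per array, the median log2 intensity of complex IV genes was 8.93 to 9.27 in the 6 blood samples of the Tsc2 experiment and 9.38 to 10.08 in the 10 of the Fmr1 experiment, without overlap. Complex II was higher in the Tsc2 experiment, also without overlap, at 9.87 to 10.26 against 9.21 to 9.81. So were the tricarboxylic acid cycle (9.64 to 10.12 against 8.67 to 9.56) and cytosolic ribosomal proteins (11.38 to 11.83 against 11.04 to 11.36). Complexes I, III and V overlapped. The median of all probe sets also tended higher in the Tsc2 experiment, at 7.25 to 7.54 against 7.07 to 7.28, with overlap. Between the WT bloods, 64.3% of all probe sets were higher in Tsc2 WT mice, and 24% did not overlap in either direction. The medians of these lists were not adjusted for this general shift.

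Blood cell markers moved with this comparison. Summed T cell markers were 9936 to 25340 in Tsc2 WT blood against 5343 to 6116 in Fmr1 WT blood, summed platelet markers 1633 to 32840 against 36210 to 39410, and summed red cell markers 22450 to 28100 against 29570 to 33540. Their part in the subunit differences was not tested. Without Tsc2 WT mouse 3, the array with few platelet markers, no member was higher and 4 were lower at that p. The counts depended on single mice, and leaving out any of the 8 but Fmr1 WT mouse 1 moved a count by more than 1.5 times, over 0 to 10 higher and 2 to 8 lower. In cerebellum, no member differed between Tsc2 WT and Fmr1 WT mice at an unadjusted p under 0.01 (limma, 1.29% of all probe sets), and the median was 0.05 against -0.04 over all probe sets.

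Whether loss of Fmr1 changed the subunit genes was tested over both tissues and within each. None of the 79 members differed between Fmr1-KO and WT mice at an unadjusted p under 0.01 over both tissues (limma with tissue in the model, 0.304% of all probe sets), in blood (0.582%) or in cerebellum (0.197%). None reached a limma unadjusted p under 0.05 either, beside 2.73%, 3.5% and 1.66% of all probe sets. In an exact two-sided permutation test in blood, only Ndufa10 (p = 0.0397) and Atp5g2 (p = 0.0476) of the 79 members passed 0.05. These exact p-values are unadjusted, and chance alone can give such values among 79 genes. The share of all probe sets passing the exact test was not taken. Both genes were lower in Fmr1-KO mice with overlapping groups, and their limma adjusted p was 0.955. The members' median difference was -0.04 over both tissues, -0.04 in blood and -0.02 in cerebellum, against -0.03, -0.07 and 0.02 over all probe sets. The smallest limma unadjusted p-values belonged to complex I genes, with Ndufb3 at -0.21 over both tissues (unadjusted p = 0.119), Ndufa10 at -0.18 in blood (unadjusted p = 0.0744) and Ndufa7 at 0.16 in cerebellum (unadjusted p = 0.222). In cerebellum Ndufa7 read 734.7, 728.4, 602.8, 716.2 and 723.3 in Fmr1-KO mice and 630.9, 535.1, 628.7, 579.4 and 781.3 in WT mice, which overlap. No member was free of overlap between Fmr1-KO and WT mice in either tissue, beside 0.562% of all probe sets in blood and 0.357% in cerebellum.

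**Figure D4:**
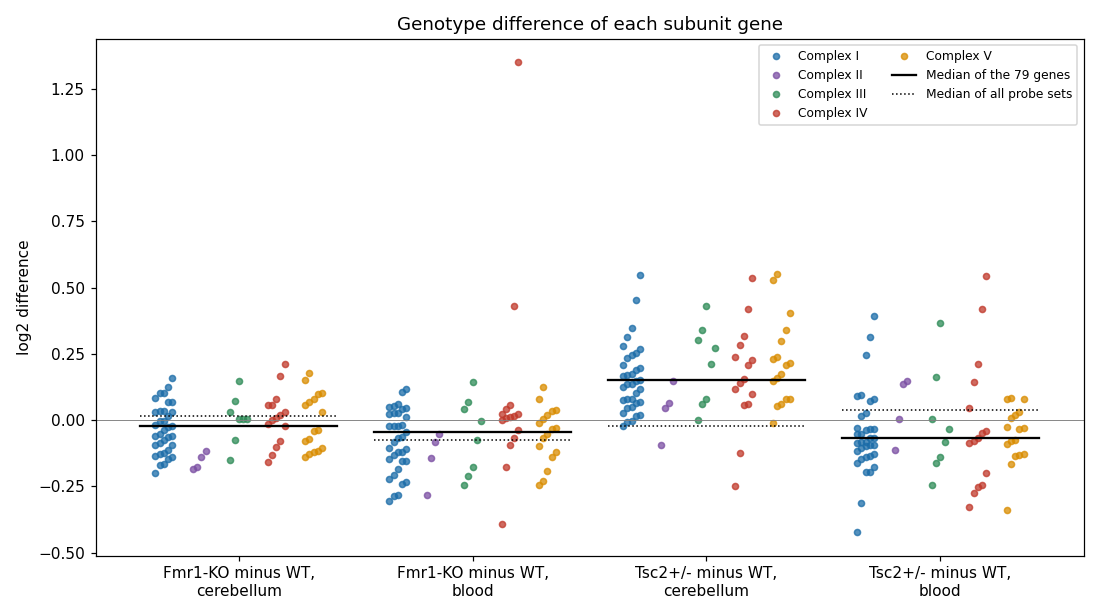
Log2 difference of each member between mutant and WT mice by tissue and complex, for Fmr1-KO and Tsc2+/- mice. Members centre on -0.04 and -0.02 in Fmr1-KO blood and cerebellum, on -0.07 in Tsc2+/- blood and on 0.15 in Tsc2+/- cerebellum.

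Loss of 1 Tsc2 copy was tested in the same way. None of the 79 members differed between Tsc2+/- and WT mice at an unadjusted p under 0.01 over both tissues (limma with tissue in the model, 0.436% of all probe sets), in blood (0.298%) or in cerebellum (1.12%), and 1 member passed an unadjusted p of 0.05, Cox7b2 in blood, beside 2.86%, 2.14% and 4.94% of all probe sets. Over both tissues the median was 0.06 against 0.02 over all probe sets, and the smallest limma p-values were those of Ndufa5, at 0.28 (unadjusted p = 0.0625), and Uqcrq, at 0.30 (unadjusted p = 0.0799). In blood Cox7b2 was dim, at 63.09, 50.87 and 59.03 in Tsc2+/- mice and 37.33, 47.86 and 44.31 in WT mice. These values did not overlap, and the log2 difference was 0.42 (unadjusted p = 0.0492). Ndufs4, an accessory subunit of complex I whose loss in mice gives a Leigh-like encephalopathy, read 750.7, 808.2 and 912.6 in Tsc2+/- blood and 1141, 937.8 and 1246 in WT blood, a difference of -0.42 (unadjusted p = 0.0516), also without overlap. In all, 2 members were higher and 2 lower without overlap in Tsc2+/- blood, beside 6.38% of all probe sets.

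In Tsc2+/- cerebellum the members lay on 1 side. The median difference was 0.15 against -0.02 over all probe sets, and 72 of 79 members (91.1%) were on the positive side, against 45.7% of probe sets. Ndufa11, a membrane-arm subunit needed for complex I stability, had the smallest p, at 2622, 3704 and 4411 in Tsc2+/- mice and 1951, 2494 and 2814 in WT mice. These values overlapped, and the log2 difference was 0.55 ± 0.24 (limma, unadjusted p = 0.0589, adjusted p = 0.926, and 0.2 in an exact two-sided permutation test whose smallest possible p is 0.1). Ndufv3, an accessory subunit of the NADH module, read 1187, 1430 and 1336 in Tsc2+/- mice and 985.4, 1185 and 1108 in WT mice and was higher without overlap (0.27, unadjusted p = 0.0886), as Cox7b2 was lower, beside 10.3% of all probe sets. Cox6a1 was at 0.54 (unadjusted p = 0.0993).

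The shift was smaller than the within-group SD of the members' array median, which was 0.312 in Tsc2+/- and 0.307 in WT cerebella. Per array, the members' median log2 intensity was 10.65, 11.10 and 11.25 in Tsc2+/- cerebella and 10.53, 10.97 and 11.12 in WT cerebella, so the groups overlapped. Both groups rose with the mouse number, and at each number the Tsc2+/- median was above the WT median. The sample titles do not say whether a shared number marks a pair. Leaving out each mouse in turn gave a median difference between 0.007 and 0.297. Cytosolic ribosomal proteins moved with it, with a median difference of 0.19 and 45 of 55 on the positive side, and array medians of 10.55, 10.99 and 11.12 in Tsc2+/- mice against 10.27, 10.65 and 10.89 in WT mice. Summed choroid plexus markers were 647 in Tsc2+/- mouse 1 and 338.6 in WT mouse 2, against 6702 to 14790 in the other 4 cerebella. The part of either in the shift was not tested.

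**Figure D5:**
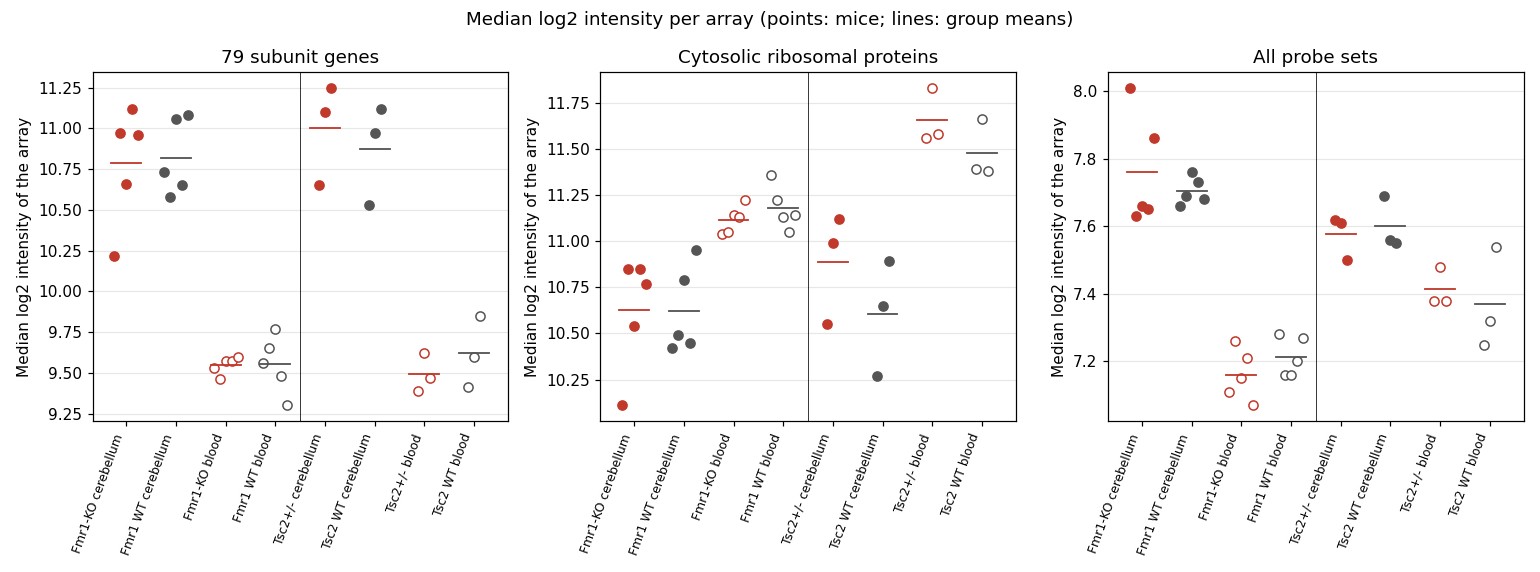
Median log2 intensity per array of the 79 subunit genes, of 55 cytosolic ribosomal proteins and of all probe sets, with points for mice and lines for group means. Members lie between 10.22 and 11.25 in cerebella and below 10 in blood, and ribosomal proteins lie lower in cerebella than in blood of the same experiment.

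Whether the genotype effect differed between tissues was tested by an interaction term. In the Fmr1 experiment no member passed an unadjusted p under 0.01 (limma, 0.537% of all probe sets), and in the Tsc2 experiment 1 did, Cox7b2, at -0.67 ± 0.21 (limma, adjusted p = 1), beside 0.596% of all probe sets. Cox7b2 no longer passed with the mouse as a block, with 16 added, with either normalization, with dim probe sets left out or with any mouse left out, and 2 members passed without the blood arrays low in platelet markers. The genotype effect of Tsc2+/- minus that of Fmr1-KO differed for no member at that p in blood (0.509% of all probe sets) or in cerebellum (0.487%).

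Subunit genes varied more between mice of a group in cerebellum than in blood, unlike most genes. The pooled within-group SD (log2) had a median over members of 0.32 in cerebellum and 0.24 in blood and was larger in cerebellum for 58 of 79 members (73.4%), against medians of 0.25 and 0.32 and 31.8% of all genes. This was not particular to the subunit genes. The array median of cytosolic ribosomal proteins had a within-group SD of 0.236 to 0.314 in cerebellum and 0.0737 to 0.159 in blood. Uqcr11 was the most variable member in cerebellum at 0.82, with 0.37 in blood. Ndufa11 had 0.60 in cerebellum and 0.13 in blood, and Ndufa3 0.59 and 0.10. The largest SD in blood was that of Cox8b at 3.22, in a group where WT mouse 2 read 0.01922. The cerebella of both mice numbered 1 in the Fmr1 experiment held extreme values of Uqcr11, Sdhb and Ndufa3, as given above.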

How the data were processed

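Total RNA from blood and cerebellum of each mouse was hybridised to Affymetrix Mouse Gene 1.0 ST arrays. The authors deposited 1 linear intensity per probe set and array, summarised with PLIER in Affymetrix Power Tools after quantile normalization over all 32 arrays, so levels are relative to the other arrays, and tool versions are not given in the sources used here. Of 35556 probe sets, 21789 carry 1 gene symbol in the platform annotation, 1621 several and 12146 none, and every probe set entered each fit. Intensities were log2 transformed without an offset. Differences were fitted with limma 3.58.1 (lmFit and eBayes, R 4.3.3), p-values were adjusted over all probe sets by Benjamini-Hochberg, and the code was tested on simulated data. Following the study's methods, tissue and genotype entered 1 linear model per experiment, and genotype comparisons used an unadjusted p under 0.01. Within a tissue, single genes were also given an exact two-sided permutation test. The number of arrays limits the precision.

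Named genes were core subunits and isoform families whatever their values, the 4 largest and 4 smallest differences past the threshold per comparison, the 3 smallest p-values where fewer than 3 passed, and the leading member of each complex per experiment. Other genes named were chosen after their values were seen. The members, lists and tests were chosen with earlier results of these data known, and the comparison of tissue differences between experiments and the fits without blood arrays low in platelet markers were added after seeing the data. Blood and cerebellum of 1 mouse share an animal, but their deviations from group means correlated at -0.07 to 0.079 over all probe sets. Over the members these correlations were -0.492 to 0.25. Alternatives changed the offset, normalization, filter, probe set per gene, variance model, block and mice. Shares of all probe sets were taken in the main fits only.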

Additional observations from a re-analysis of the deposited data

Results flagged for a closer look

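Values far from the rest of their group were sought in 228 groups of 5 mice (Dixon's test at the 95% level, which chance passes in about 1 of 20 groups), which only the Fmr1 experiment has, and 16 were found. In Fmr1-KO cerebella, mouse 1 was the lowest for the median of complex III (931.4, next 1946), Sdhb (564.4, next 1405), Atp5a1 (3757, next 6396), Atp5g3 (2503, next 5734), Uqcr11 (444.2, next 1472) and Ndufb8 (586.6, next 987.6). This array also had the lowest correlation with the others of its group, 0.882. Mouse 3 was the lowest for Ndufa7 (602.8, next 716.2).

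In Fmr1 WT cerebella, mouse 5 was the highest for Cox6b1 (4128, next 2605), Ndufc2 (9078, next 7533) and Ndufb9 (3315, next 2432), and mouse 1 for Sdhc (4217, next 3029) and Ndufa10 (2475, next 1952). In Fmr1 WT blood, mouse 5 was the lowest for Ndufs1 (206.3, next 352.8) and Atp5a1 (1665, next 2098), mouse 4 for Sdhc (866.4, next 1140) and mouse 2 for Cox8b (0.01922, next 11.73).

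The difference between cerebellum and blood itself differed between the Tsc2 and the Fmr1 experiment (limma interaction, adjusted p under 0.05), with the signed log2 difference higher in the Tsc2 experiment for 16 members and lower for 14. Those named were Atp5l at 1.39, Cox6b2 at 1.27 (a less negative difference), Cox6a1 at 1.17 and Ndufb9 at 1.03, and in the other direction Ndufa9 at -0.85, Atp5g1 at -0.83, Sdhc at -0.76 and Atp5d at -0.73.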

How the results depend on the processing

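Strain cannot be told apart from experiment, 3 mice per group limit the Tsc2 comparisons, and dim genes such as Cox8b and Cox7b2 have unsteady log2 values. In the Fmr1 tissue comparison, centring each array gave 17 members lower, a median of 0.75, and changed signs for Atp5b (-0.32), Cox7b (-0.013) and Cox7b2 (-0.017). Repeated quantile normalization gave 15 lower, a median of 0.992 and Cox7b2 at -0.343, and averaging the probe sets of Cox7a2l gave 0.375. In the Tsc2 tissue comparison both normalizations gave 4 lower. The added comparison of tissue differences had 0 lower and a median of 0.243 with arrays centred, 6 lower and 0.182 with repeated quantile normalization, 6 lower without the arrays low in platelet markers, and 9 to 18 lower with each mouse left out (9 without Tsc2 WT mouse 3).

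The genotype counts of 0 held without variance moderation. Mutant and WT mice of the same number were not treated as pairs, and the sample titles give a number without saying what it marks. The deviations of same-numbered mice correlated at -0.09 to 0.228 over all probe sets and at -0.824 to 0.752 over the members. In cerebellum the mice numbered 1 reached 0.752 (Fmr1 experiment) and 0.75 (Tsc2 experiment) over the members. The replicate block gave 2 members higher in Tsc2+/- cerebellum, Ndufa11 and Cox6a1. For the tissue dependence of the Tsc2+/- effect, 0 members were lower with 16 added, with either normalization, with dim probe sets left out, with the mouse as replicate block or with any mouse left out (0 to 0), and 2 without the arrays low in platelet markers. With each mouse left out, 0 to 1 members were higher in Tsc2+/- mice over both tissues and in blood, and 0 to 1 between the models in blood, where the median ran from -0.093 to 0.18. Each count of 1 came without Tsc2 WT mouse 3, and leaving out the arrays low in platelet markers also gave 1 between the models.

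Between WT mice in blood, 11 members were higher with 16 added, 3 higher and 13 lower with a median of -0.106 after repeated quantile normalization, 0 higher and 5 lower without moderation, 0 and 0 with the replicate block, 0 and 4 without the array low in platelet markers, and 0 to 10 higher and 2 to 8 lower with each mouse left out. The cause of these changes was not tested. Of the other values for member counts and medians, 721 kept their size class. The sign of a median was checked only in the comparisons of tissue differences. Elsewhere a small median may have changed sign and still be among these 721.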
